A study of Mus musculus with 12 samples.

Results

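Hcn2, Hcn3 and Hcn4 encode pore-forming subunits of the hyperpolarization-activated, cyclic nucleotide-gated (HCN) channels, and Pex5l encodes their auxiliary subunit TRIP8b. These 4 members were taken by gene symbol from the 55335 genes counted in single nuclei of the mouse cortex, and each symbol matched 1 gene. No other subunit was analysed here. HCN channels open on hyperpolarization and carry the mixed cation current Ih, which sets the resting potential and helps to pace rhythmic firing. Cyclic AMP, made by adenylyl cyclases, binds the channels and makes them open more readily. TRIP8b binds HCN subunits, directs their delivery to the surface of dendrites and axons, and counteracts the effect of cyclic AMP.

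The samples were cortices of 12 mice aged 21 days, 6 wild type (WT) and 6 heterozygous (Het) for MYT1L S710fsX, a germline frameshift in the transcription factor MYT1L, with 3 males and 3 females of each genotype. All 12 animals carried AAV9 vectors with a calling card and a tdTomato construct, injected shortly after birth, and their nuclei were fixed, barcoded and sequenced in parallel with the Scale Biosciences kit. The matrices held 78743 barcodes and between 23429386 and 59958572 unique molecular identifiers (UMIs) per animal in WT and between 36302019 and 56967218 in Het. The limits of the study on UMIs, genes, mitochondrial share and complexity (log genes over log UMIs), with removal of likely doublets, left 33116 nuclei. Of these, 14344 were from WT and 18772 from Het, and no barcode was shared between animals. The deposited barcodes and the kept nuclei were each fewer than the nuclei the study reported at this age. The reason was not tested. Levels are given in CPM, the counts of a gene scaled to the total of all genes in the summed nuclei of a class in 1 animal, so that the animal is the replicate. At this depth the members other than Pex5l were sparse, with 1013 UMIs of Hcn2, 777 of Hcn3 and 240 of Hcn4 in all nuclei against 54821 of Pex5l. A lower level in such sums can come from fewer nuclei that carry the transcript or from less of it per nucleus, and these were not separated here.

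Nuclei fell into 21064 excitatory, 8651 inhibitory and 3401 non-neuronal nuclei by marker UMIs, and 23818 of them lay in clusters that could be named. Cortical excitatory classes are intratelencephalic (IT), extratelencephalic (ET), near-projecting (NP) and corticothalamic (CT) neurons of a layer (L), and the inhibitory classes Pvalb, Sst, Vip, Lamp5 and Sncg are named after a marker gene. The dissection also held nuclei like those of hippocampal CA1, the dentate gyrus and the striatum. The 39 check genes took no part in the marker score, but they counted among the raised and leading genes used in naming. Of these, 32 were highest in their own class when compared within excitatory, inhibitory or non-neuronal classes. This was not an independent check, so each class is called like its type and no more. The only check gene of the Sncg-like class was not highest there. Sncg itself was at 0 CPM in this class, although other markers of its list, such as Cnr1 (840 CPM), were highest there. Microglia-like nuclei carried the neuronal transcripts Rbfox3 at 63.5 CPM and Gad2 at 53.7 CPM, and the part of other cells' RNA in the values of this class was not tested. For Myt1l itself the WT animals gave 883 ± 45.4 CPM and the Het animals 985 ± 30.2 CPM (SD, n = 6 each). The log2 fold change of 0.14 did not pass the test (SE 0.05; edgeR quasi-likelihood test, adjusted p = 0.677). Since counts per gene do not separate the alleles, the level of Myt1l does not check the genotype labels.

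In mm10 the members lie at chr10:79716634-79736108 on the plus strand (Hcn2), chr3:89146074-89160196 on the minus strand (Hcn3), chr9:58823412-58863175 on the plus strand (Hcn4) and chr3:32949408-33143247 on the minus strand (Pex5l). All 4 are protein-coding genes. Hcn3 overlaps 711 bases at the end of Pklr on the opposite strand. The annotation places the antisense gene 4930419G24Rik, the small nuclear RNA gene Gm23214 and, on the same strand, the provisional gene models Gm19445 and Gm37443 within the span of Pex5l, and the antisense gene Gm37459 overlaps 33894 bases of it and extends beyond. UMIs that fit several genes were divided among them upstream, so the share between Pex5l and these models is uncertain.

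The members divided between the neuronal classes in opposite directions. Hcn2, Hcn3 and Hcn4 were higher in inhibitory than in excitatory nuclei of the same animals, and Pex5l was higher in excitatory nuclei. These sums include unnamed clusters, and the difference did not hold for every class. Hcn2 was at 19.1 CPM in Pvalb-like nuclei, but its 7.49 CPM in Lamp5-like nuclei lay within the excitatory classes (5.23 to 11.1 CPM). Hcn4 was at 6.45 CPM in Vip-like, 1.21 in Sst-like and 0 in Pvalb-like nuclei, against 2.39 CPM in L4/5 IT-like nuclei. The comparison was paired within the 12 animals and used an exact two-sided sign-flip permutation test, adjusted over the 4 members by Benjamini-Hochberg.

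Hcn3, a subunit whose channels respond little to cyclic AMP, had the largest estimated excess in inhibitory nuclei. Its level per animal ran from 6.99 to 17.1 CPM with a median of 10.98 in inhibitory nuclei, and from 3.76 to 7.59 CPM with a median of 5.93 in excitatory nuclei. It was higher in inhibitory nuclei in 12 of 12 animals, by 0.83 ± 0.29 on the log2(CPM + 1) scale (SD, n = 12; exact permutation test, adjusted p = 0.000977), although the ranges over all animals overlapped slightly.

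Hcn2, a subunit that is widespread in the brain, had a smaller estimate, and the estimates were not tested against each other. It ran from 7.47 to 16.0 CPM with a median of 11.1 in inhibitory nuclei, and from 6.09 to 11.8 CPM with a median of 8.24 in excitatory nuclei. The difference was 0.43 ± 0.37 on the log2 scale (SD, n = 12), higher in inhibitory nuclei in 11 of 12 animals (exact permutation test, adjusted p = 0.0026). The exception was WT male 1, with 11.8 CPM in excitatory and 10.2 CPM in inhibitory nuclei.

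Hcn4, a subunit best known from the cardiac pacemaker and from thalamic neurons, was the sparsest in these nuclei. It ran from 0.741 to 6.72 CPM with a median of 3.44 in inhibitory nuclei, and from 0.843 to 2.85 CPM with a median of 1.81 in excitatory nuclei. The difference was 0.51 ± 0.67 on the log2 scale (SD, n = 12), higher in inhibitory nuclei in 10 of 12 animals (exact permutation test, adjusted p = 0.0273). This call depended on single animals and on how nuclei were classed. Without WT male 1 or without WT male 2 the adjusted p was 0.0547 in each case, and with only the more clearly classed nuclei the difference was 0.25 on the log2 scale (exact permutation test, adjusted p = 0.373).

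Pex5l went the other way in every animal. It ran from 580 to 748 CPM with a median of 634 in excitatory nuclei, and from 180 to 265 CPM with a median of 222 in inhibitory nuclei, and these ranges did not overlap. The inhibitory level was lower by a log2 difference of -1.47 ± 0.18 (SD, n = 12), in 12 of 12 animals (exact permutation test, adjusted p = 0.000977).

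**Figure D1:**
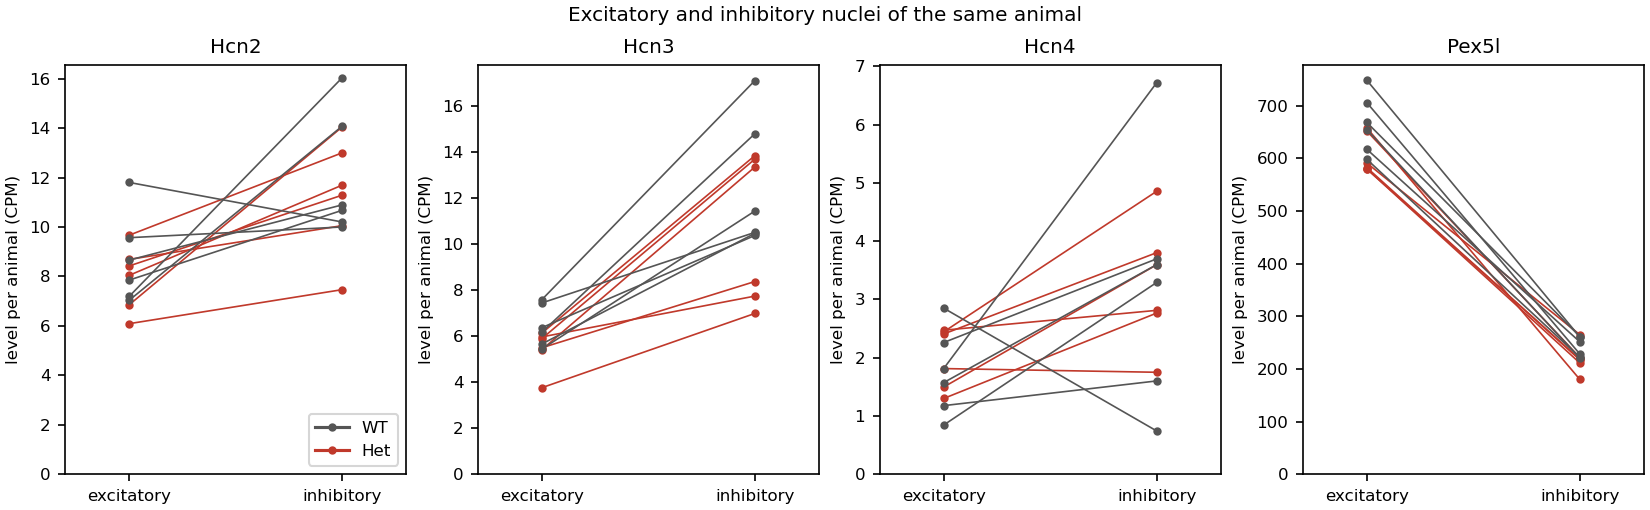
Level of each member in CPM in excitatory and inhibitory nuclei, with 1 line per animal (grey WT, red Het). Lines rise toward inhibitory nuclei in 11, 12 and 10 of 12 animals for Hcn2, Hcn3 and Hcn4, and fall in all 12 for Pex5l.

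Classes are ordered by their means over both genotypes together. Among 18 named classes, Hcn2 was highest in Pvalb-like nuclei, the class named after the calcium buffer of fast-spiking interneurons. Its level there was 19.1 ± 5.93 CPM (SD, n = 12), from 72.5 UMIs in 1008 nuclei, with 9.28 CPM in the lowest animal and 28.2 CPM in the highest. No animal was without the transcript in this class. Microglia-like nuclei followed by their mean, at 15.8 ± 24.1 CPM (SD, n = 6), but this rested on 4 UMIs and 3 of 6 animals had none. In WT animals alone the microglia-like mean, 20.3 CPM from 2 UMIs in 3 animals, was above the 15.9 CPM of Pvalb-like and 13.0 CPM of Sst-like nuclei.

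The other classes lay close together. Hcn2 was at 11.1 ± 5.12 CPM in Sst-like, 9.47 ± 9.63 in Vip-like, 9.30 ± 13.1 in Sncg-like and 7.49 ± 5.60 in Lamp5-like interneurons (SD, n = 12, and n = 11 for Sncg). Among excitatory classes it ran from 11.1 ± 6.58 CPM in L6 IT-like, through 9.02 ± 8.43 in CA1-like, 8.95 ± 1.95 in L6 CT-like, 8.74 ± 12.3 in L5 ET-like, 8.38 ± 6.58 in L5 NP-like and 7.76 ± 2.94 in L2/3 IT-like, to 6.24 ± 2.80 in L4/5 IT-like and 5.23 ± 6.17 in dentate granule-like nuclei (SD, n = 12). The remaining levels were 9.94 ± 6.20 CPM in oligodendrocyte-like, 8.84 ± 4.66 in striatal projection-like and 5.03 ± 6.43 in oligodendrocyte precursor (OPC)-like nuclei (SD, n = 12).

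The spread between animals was of the order of the differences. Astrocyte-like nuclei held no UMI of Hcn2 in 133 nuclei of 8 animals, which allows up to 9.28 CPM and so does not set them below the rest. No step between neighbours in this order passed the test (exact sign-flip permutation test, adjusted over 68 neighbouring pairs of the 4 members). Steps at microglia-like nuclei rested on at most 6 animals, where the exact test cannot give a p below 0.03125. They could not pass this adjustment beside the other pairs. Among only the 15 classes that all 12 animals entered, an order added after the data were seen, Pvalb-like and Sst-like nuclei were neighbours. They differed by 0.79 ± 0.93 on the log2 scale, higher in Pvalb-like nuclei in 10 of 12 animals (exact permutation test, p = 0.0151, adjusted p = 0.106). Pvalb-like nuclei remained the highest of the classes with all animals when doublets were kept (19.9 ± 5.67 CPM). They also did when nuclei were kept with neither upper limits nor a limit on complexity, the log of genes over the log of UMIs (16.9 ± 5.67 CPM). With the stricter class margin they were highest too (19.1 ± 5.93 CPM), but this margin left the class unchanged, so its level was no separate check.

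Over both genotypes together the highest means of Hcn3 were those of 3 interneuron classes other than Pvalb. Its level was 16.9 ± 9.67 CPM in Vip-like, 14.9 ± 7.10 in Sst-like and 13.2 ± 5.49 in Lamp5-like nuclei (SD, n = 12). The Vip-like value came from 33 UMIs in 625 nuclei and ran from 0 in 1 animal to 32.6 CPM. Its place differed by genotype: in Het animals alone the means were 16.6 CPM in Sst-like, 14.8 in Lamp5-like and 11.99 in Vip-like nuclei. In WT animals alone they were 21.8 CPM in Vip-like, 19.4 in Sncg-like and 15.1 in L5 NP-like nuclei, above the 13.3 of Sst-like and 11.5 of Lamp5-like nuclei, and this difference in order was not tested. Of the excitatory classes L5 NP-like and L5 ET-like nuclei stood highest, at 12.7 ± 8.13 and 9.67 ± 8.47 CPM (SD, n = 12).

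The remaining classes of Hcn3 descended without a step that passed the test. They were Sncg-like (10.1 ± 15.7 CPM, n = 11), Pvalb-like (8.99 ± 4.80), OPC-like (7.23 ± 7.55), L6 IT-like (6.93 ± 3.22), CA1-like (6.07 ± 4.97), microglia-like (5.79 ± 14.2, n = 6), L4/5 IT-like (5.29 ± 3.10), L2/3 IT-like (4.72 ± 2.75), dentate granule-like (2.80 ± 3.95) and L6 CT-like nuclei (2.76 ± 2.56). Striatal projection-like (2.47 ± 3.96), astrocyte-like (2.15 ± 6.08, n = 8) and oligodendrocyte-like nuclei (1.42 ± 3.99) came last. The L6 CT-like value rested on 35 UMIs in 4284 nuclei and was above 0 in every animal. In oligodendrocyte-like nuclei 9 of 12 animals had none. Vip-like nuclei led the classes with all animals in 3 of the 4 sets of nuclei, and Sncg-like nuclei led when the upper limits and the complexity limit were lifted together (16.1 ± 9.41 CPM). Among those 3 sets, the stricter class margin left the Vip-like values unchanged.

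Hcn4 had its highest means among the named classes in Vip-like and Sncg-like interneurons, from few molecules. The Vip-like mean was 6.45 ± 9.39 CPM (SD, n = 12) from 11.3 UMIs, with 6 animals at 0 and 23.2 CPM in the highest. The Sncg-like mean was 6.14 ± 9.87 CPM (SD, n = 11) from 4 UMIs, with 7 animals at 0. Both means came mostly from WT animals (11.9 and 12.1 CPM), while in Het animals alone they were 1.04 CPM in Vip-like and 1.19 CPM in Sncg-like nuclei, under the 4.75 CPM of OPC-like and 3.33 CPM of L5 NP-like nuclei.

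Elsewhere Hcn4 lay between 0.271 ± 0.938 CPM in dentate granule-like and 2.39 ± 1.91 CPM in L4/5 IT-like nuclei (SD, n = 12). In descending order between them were OPC-like (2.38 ± 4.76), striatal projection-like (2.32 ± 3.97), L5 NP-like (2.31 ± 3.11), L2/3 IT-like (2.21 ± 1.53), L5 ET-like (1.73 ± 4.12), Lamp5-like (1.62 ± 3.07), L6 IT-like (1.498 ± 1.75), Sst-like (1.21 ± 1.90), CA1-like (1.02 ± 2.82) and L6 CT-like nuclei (0.441 ± 0.5685). Pvalb-like nuclei, where Hcn2 was highest, held no UMI of Hcn4 in 1008 nuclei, which allows up to 0.812 CPM. Oligodendrocyte-like nuclei held none either (up to 0.717 CPM), nor did the few microglia-like (up to 8.85 CPM) and astrocyte-like nuclei (up to 9.28 CPM). These limits cover counting error only. No neighbouring classes of Hcn4 passed the test.

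Pex5l was ordered far more sharply. CA1-like nuclei stood highest, at 1479 ± 292 CPM (SD, n = 12), with 1179 CPM in the lowest animal and 2358 in the highest. L5 ET-like nuclei followed at 909 ± 202 CPM, lower than CA1-like nuclei in 12 of 12 animals by 0.71 ± 0.41 on the log2 scale (SD; exact permutation test, adjusted p = 0.0199). CA1 and L5 ET pyramidal neurons have long apical dendrites, in which HCN channels and TRIP8b are known to be concentrated. In the L5 ET-like class the markers Pou3f1 and Vat1l and the check genes Chst8 and Erg were highest among excitatory classes. Its markers Fam84b and Npr3 were highest in CA1-like nuclei, and Bcl6 and Slco2a1 in dentate granule-like nuclei. CA1-like nuclei stayed highest of the classes with all animals in each other set of nuclei. With the upper limits and the complexity limit lifted together, L5 IT-like nuclei came second, at 977 ± 130 CPM. No L5 ET-like class was fitted in that set, so the place of this class depended on the limits.

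The cortical IT and CT classes came next and differed in small steps. The levels were 845 ± 115 CPM in L4/5 IT-like, 818 ± 73.5 in L6 CT-like and 750 ± 64.2 in L6 IT-like nuclei (SD, n = 12). The first of these steps did not pass the test, nor did that from L5 ET-like to L4/5 IT-like nuclei, whereas L6 CT-like nuclei were above L6 IT-like nuclei in 11 of 12 animals by 0.12 ± 0.09 on the log2 scale (SD; exact permutation test, adjusted p = 0.0199). L2/3 IT-like nuclei were much lower, at 426 ± 59.5 CPM, beside dentate granule-like (425 ± 76.7), L5 NP-like (386 ± 84.6) and Sncg-like nuclei (480 ± 249, n = 11), and these neighbours did not pass the test among themselves.

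Oligodendrocyte-like nuclei reached a level within the neuronal range, 574 ± 148 CPM (SD, n = 12), from 389.8 CPM in the lowest animal to 861 in the highest. The neuronal transcript Rbfox3 was at 10.6 CPM and Slc17a7 at 6.33 CPM in the same nuclei, against 571 and 152 CPM in L6 CT-like nuclei. Low values were partly required, since non-neuronal clusters above 25% of the neuronal level of such transcripts were left unnamed. They lay below L6 IT-like nuclei in 11 of 12 animals by 0.42 ± 0.30 on the log2 scale (SD; exact permutation test, adjusted p = 0.0199).

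Apart from Sncg-like nuclei, the means of the inhibitory classes lay below those of the excitatory classes. Pex5l was at 288 ± 43.2 CPM in Sst-like, 192 ± 46.8 in Vip-like, 154 ± 35.3 in Lamp5-like, 149 ± 29.2 in Pvalb-like and 117 ± 21.8 in striatal projection-like nuclei (SD, n = 12). L5 NP-like nuclei were above Sst-like nuclei and Sst-like above Vip-like nuclei, by 0.41 ± 0.29 and 0.60 ± 0.40 on the log2 scale, each in 11 of 12 animals (SD; exact permutation test, adjusted p = 0.0199 for both). Striatal projection-like nuclei were above OPC-like nuclei (81.9 ± 27.0 CPM) in 11 of 12 animals by 0.57 ± 0.53 (SD; exact permutation test, adjusted p = 0.0277), while Pvalb-like and striatal projection-like nuclei did not pass (adjusted p = 0.284). Microglia-like nuclei held 186 ± 188 CPM (SD, n = 6) beside the neuronal transcripts given above, and astrocyte-like nuclei 39.6 ± 83.0 CPM (SD, n = 8), with 6 of 8 animals at 0. In all, 6 of the 68 neighbouring pairs passed, and each was a pair of Pex5l.

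**Figure D2:**
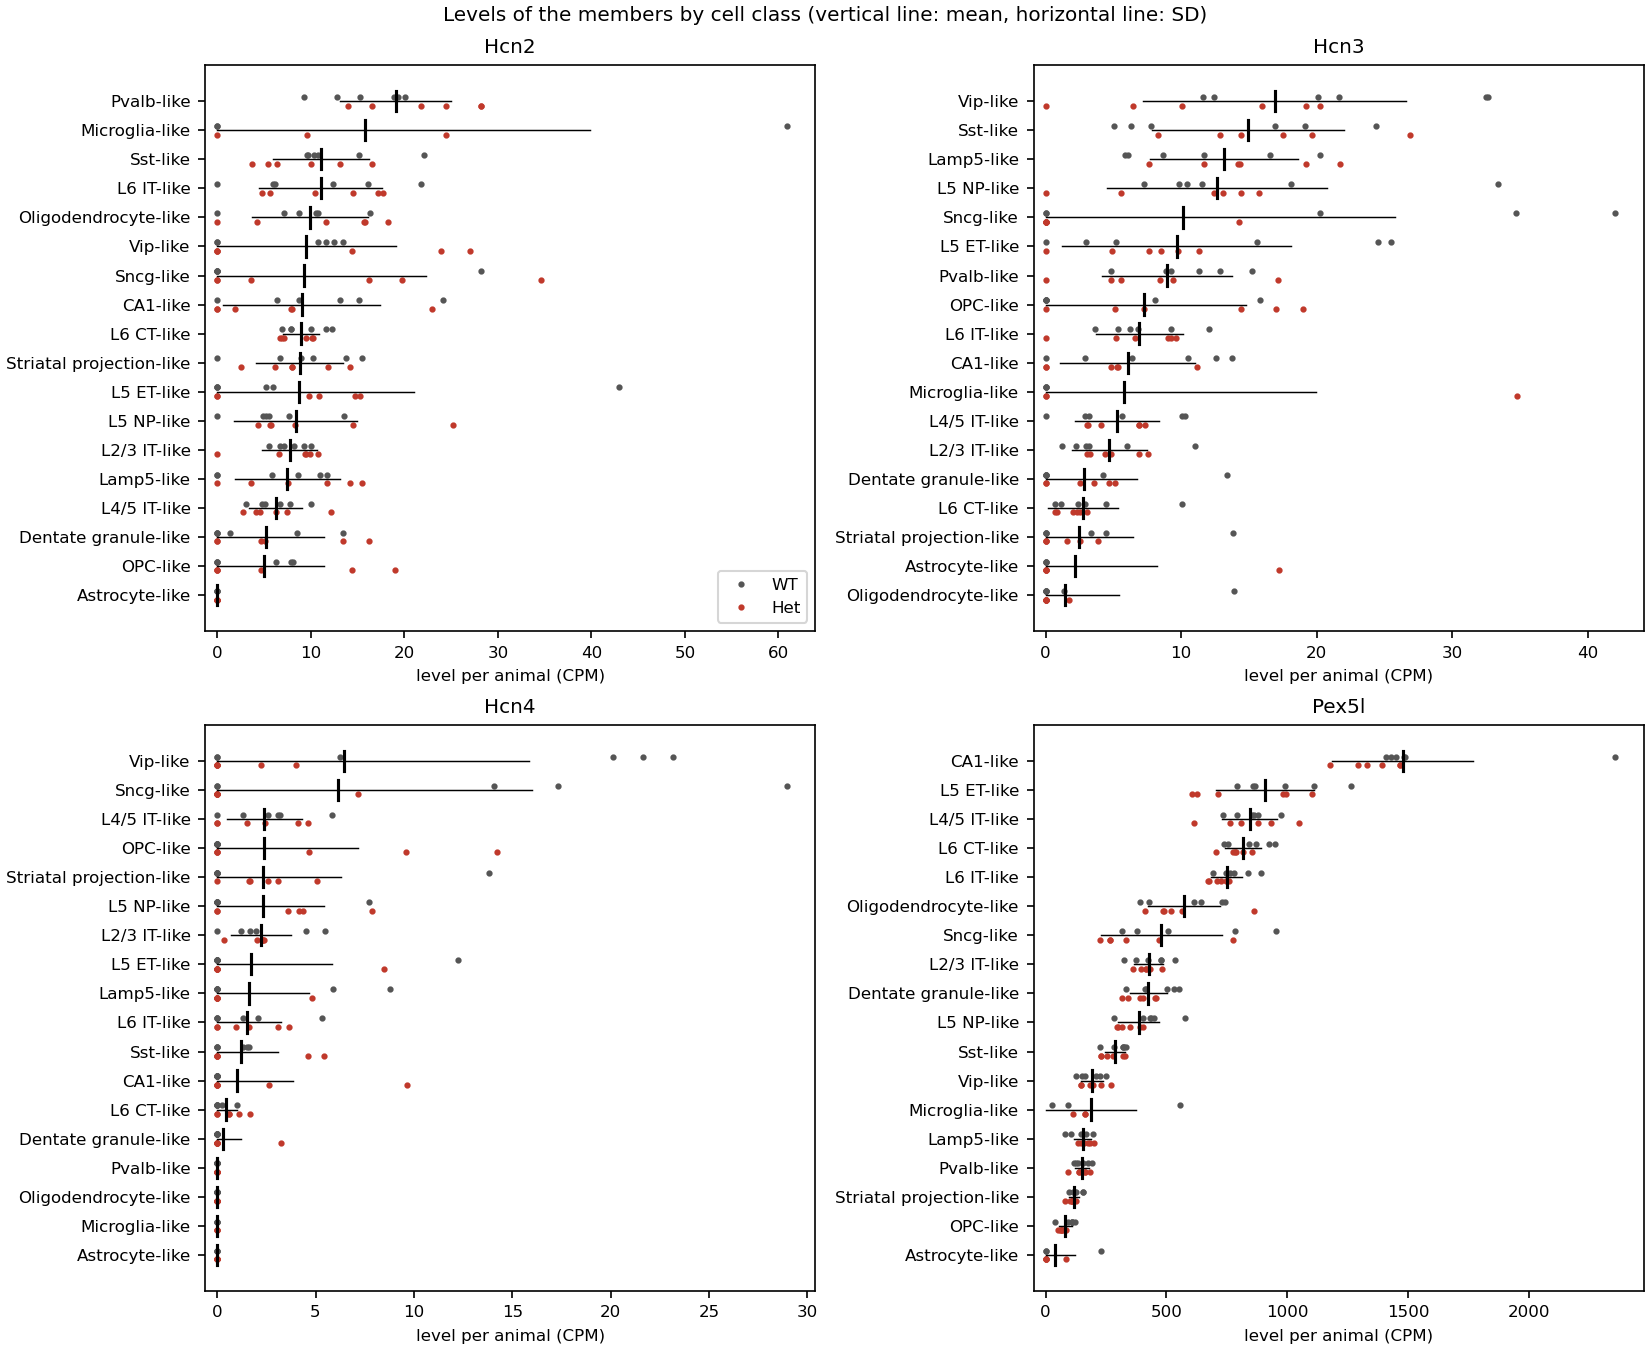
Level of each member in CPM per animal (horizontal axes, a scale of its own for each gene) in the 18 classes, ordered by the mean, with grey points for WT, red points for Het, vertical lines for the mean and horizontal lines for the SD. Over both genotypes together the highest means are those of Pvalb-like nuclei for Hcn2 (19.1 CPM), Vip-like nuclei for Hcn3 and Hcn4 (16.9 and 6.45 CPM) and CA1-like nuclei for Pex5l (1479 CPM), but for Hcn3 and Hcn4 the Vip-like class is not the highest in Het animals alone, nor is the Pvalb-like class for Hcn2 in WT animals alone.

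The patterns across classes were not shared by the 4 genes. Over the 18 class means, Pearson's r of the log2(CPM + 5) levels was 0.55 between Hcn3 and Hcn4 and 0.35 between Hcn2 and Hcn3, and Pex5l correlated with Hcn2 at 0.34, with Hcn4 at 0.05 and with Hcn3 at -0.02. The class means share animals and libraries, and sparse counts lower r, so these are descriptions. Of 10381 genes compared, those most like Pex5l were Gm19445 (r = 0.95), 4930419G24Rik (0.94) and Gm37459 (0.92), and all 3 overlap Pex5l in the genome. The part of divided UMIs in this likeness was not tested.

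For the channel subunits the annotation left little room for such a neighbourhood, since no other gene overlaps Hcn2 or Hcn4 and only Pklr overlaps Hcn3. The genes most like Hcn2 were Dhx35 (r = 0.86), Epb41l3 (0.84) and Noc2l (0.84). Those most like Hcn3 were Siah3 (0.87), Podxl2 (0.85) and Ache, the acetylcholinesterase gene (0.84), and those most like Hcn4 were Wnt5a (0.84), Cbln2 (0.81) and Gm12068 (0.80). None of these 9 genes lies on the chromosome of the member it resembles.

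Within classes the single clusters differed widely. They are described without a test, since they were chosen after their values were seen and the clusters were drawn from the same nuclei, although no member took part in the clustering. Most of the Hcn2 in oligodendrocyte-like nuclei came from 1 of 5 clusters. This cluster of 442 nuclei held 36.5 of the 48.5 UMIs, a level of 33.4 CPM with a median over animals of 34.3, and 2 of 12 animals at 0. The other clusters lay between 0 and 5.03 CPM. By this level it was the highest cluster of Hcn2 among all clusters of at least 100 nuclei, above the Pvalb-like clusters of 515 and 493 nuclei at 23.3 and 15.2 CPM.

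The cluster lay between newly formed and mature cells by 2 genes of the lineage. Enpp6, a gene of newly formed oligodendrocytes, and Opalin, a gene of myelinating ones, were at 270 and 257 CPM in it. Pex5l followed the same lineage in another way. It was at 93.4 and 43.4 CPM in the OPC-like clusters, and at 36.6 CPM in the oligodendrocyte-like cluster of 110 nuclei where Enpp6 was highest (1657 CPM). It was at 1374 CPM in the cluster of 142 nuclei, 750 in that of 442, 253 in that of 676 and 1024 in that of 239 nuclei. Pex5l was thus low in the Enpp6-high cluster and high in the next, and differed between the clusters with the most Opalin.

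**Figure D3:**
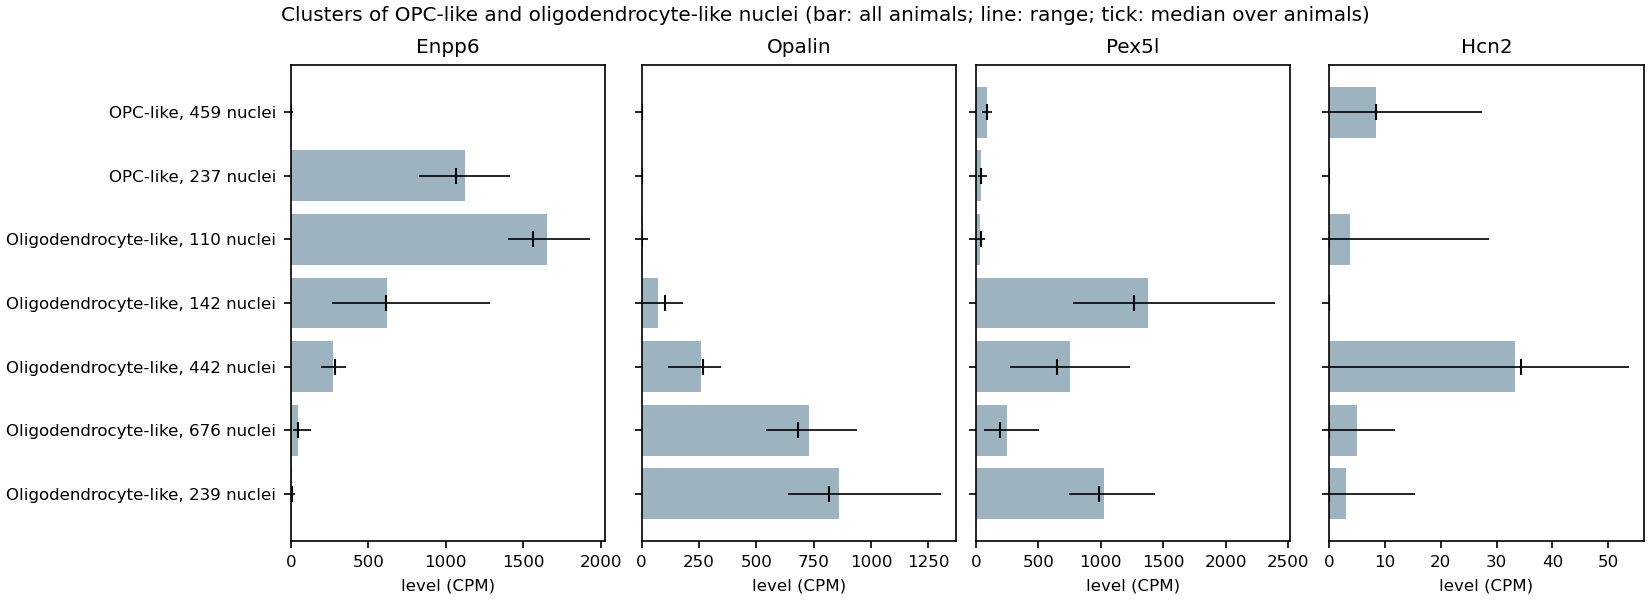
Levels in CPM (bars, all animals together) of Enpp6, Opalin, Pex5l and Hcn2 in the OPC-like and oligodendrocyte-like clusters, each named by its number of nuclei, with Enpp6 rising over the OPC-like and falling over the oligodendrocyte-like clusters, and with black lines for the range and ticks for the median over animals. Hcn2 reaches 33.4 CPM in 1 cluster, and Pex5l 1374 CPM in another.

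Neuronal clusters also held exceptions to the class order. An unnamed excitatory cluster of 461 nuclei led by Tshz2, Htr4 and Chrm2 held Pex5l at 26.8 CPM, the lowest of the 31 excitatory clusters with at least 100 nuclei, whereas an unnamed inhibitory cluster of 215 nuclei led by Foxp2 and Chst9 held it at 974 CPM, the highest of the 23 inhibitory ones. For Hcn3 the highest clusters were a Lamp5-like cluster of 146 nuclei at 33.2 CPM and an unnamed excitatory cluster of 139 nuclei, led by Reln, Rbm20 and Thsd7a, at 32.0 CPM. The same excitatory cluster held the most Hcn4 of the clusters with at least 100 nuclei, 16.0 CPM from 7 UMIs.

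Much of Hcn4 lay outside the named classes. By the naming rules a cluster with Meis2 among its leading genes could only be named striatal projection-like. The part of this rule in the shares below was not tested. Unnamed clusters held 61.7% of the Hcn4 UMIs of inhibitory nuclei, and 32.5% of those nuclei. The corresponding shares of UMIs were 30.7% for Hcn2, 34.5% for Hcn3 and 39.6% for Pex5l. An unnamed cluster of 739 inhibitory nuclei led by Cpa6, Meis2 and Lgr5 held Hcn4 at 9.22 CPM, and another of 551 nuclei led by Rmst, Tshz2 and Unc13c at 8.74 CPM.

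The comparison of genotypes asked whether the members change when 1 copy of MYT1L carries the frameshift. None passed the test. With all nuclei of an animal summed, 0 of the 4 members were called (edgeR quasi-likelihood test, Benjamini-Hochberg adjusted p under 0.05 over all genes tested and a log2 fold change beyond 0.2), against a background of 0% of all genes tested. In this fit 1 of the 4, Pex5l, had an unadjusted p under 0.05.

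Pex5l ran from 464 to 618 CPM with a median of 516 in WT and from 449 to 498 CPM with a median of 477 in Het. The groups overlapped, but all 6 Het animals lay under the WT median, and the Het animals were closer together. The log2 fold change was -0.18 (SE 0.07; adjusted p = 0.780 by edgeR, and adjusted p = 0.5 by DESeq2). The adjusted p ranged from 0.410 to 1 over 18 alternative settings.

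The channel subunits had smaller estimates in relation to their error. Hcn2 ran from 8.44 to 11.3 CPM (median 9.39) in WT and from 6.70 to 10.4 CPM (median 9.01) in Het, with a log2 fold change of -0.13 (SE 0.11; edgeR adjusted p = 0.965). Hcn3 ran from 6.82 to 9.83 CPM (median 7.48) in WT and from 4.75 to 8.41 CPM (median 6.57) in Het, with a log2 fold change of -0.24 (SE 0.15; edgeR adjusted p = 0.922). Hcn4 ran from 1.28 to 3.24 CPM (median 1.91) in WT and from 1.49 to 3.06 CPM (median 2.28) in Het, with a log2 fold change of 0.07 (SE 0.23; edgeR adjusted p = 0.999), whose sign turned under 3 alternative settings. With neither upper limits nor a complexity limit on nuclei the estimates for Hcn2 and Hcn3 were nearer to 0, at -0.08 and -0.11. The genotypes overlapped for each subunit.

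In excitatory nuclei none of the 4 members was called by edgeR, beside 0.157% of the genes tested, and in inhibitory nuclei none of the 3 that passed the filter on low counts was called, beside 0.236%. Hcn3 in excitatory nuclei ran from 5.44 to 7.59 CPM with a median of 6.27 in WT and from 3.76 to 6.13 CPM with a median of 5.69 in Het. All 6 Het animals lay under the WT median, yet the groups overlapped and the log2 fold change of -0.27 did not pass (SE 0.15; edgeR adjusted p = 0.731). Pex5l had log2 fold changes of -0.15 in excitatory (SE 0.06; adjusted p = 0.528) and -0.15 in inhibitory nuclei (SE 0.08; adjusted p = 0.838, edgeR). Striatal projection-like nuclei, which are low in Pex5l, made up 20.2% of inhibitory nuclei in Het and 13.1% in WT, and the part of this share in the inhibitory and all-nuclei values of Pex5l was not tested. Hcn4 in inhibitory nuclei fell under the filter, with means of 3.27 CPM in WT and 3.26 CPM in Het, and was not called when fitted with no filter (log2 fold change -0.08, SE 0.33; edgeR adjusted p = 0.961).

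**Figure D4:**
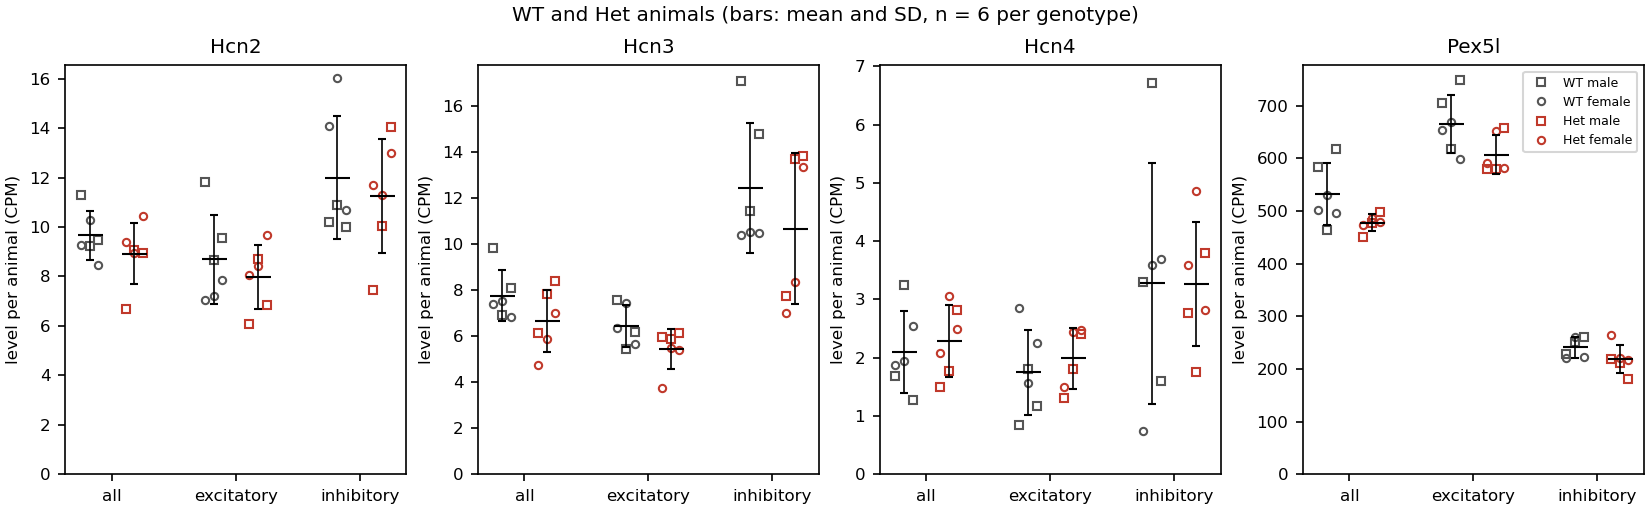
Level of each member in CPM per animal in all, excitatory and inhibitory nuclei, grey for WT and red for Het, squares for males and circles for females, with the mean and SD of 6 animals. The genotypes overlap for every member in each set of nuclei, and the 6 Het animals lie within 449 to 498 CPM for Pex5l in all nuclei.

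Of the named classes, Pex5l passed the filter on low counts in 16 and Hcn2 in 1, and Hcn3 and Hcn4 in none. No member was called in any of them, where edgeR called 0.159% of all tests. Over all 28 tests of members in 21 fits, edgeR called 0 and gave an unadjusted p under 0.05 in 5, and DESeq2 called 0, with 3 under 0.05 and a background of 0.266%. Over all genes in these fits the share under an unadjusted 0.05 was 6.73% by edgeR and 4.79% by DESeq2. With no filter on low counts, edgeR called 0 of 79 tests of members, beside 0.115% of all tests called.

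The estimates for Pex5l were below 0 in 15 of the 16 classes by edgeR, and in 14 by DESeq2 or with a block for sex and replicate number. The median log2 fold change by edgeR was -0.17, beside medians over all genes of between -0.0068 and 0.0032 in these classes. The classes come from the same 12 animals and are not independent. The smallest p was in L5 NP-like nuclei, where Pex5l ran from 283 to 577 CPM (median 434) in WT and from 294 to 402 CPM (median 331) in Het. All Het animals lay under the WT median and within the WT range, and the log2 fold change was -0.37 (SE 0.12; edgeR adjusted p = 0.249).

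Other classes showed the same overlap. In CA1-like nuclei, where Pex5l was highest, WT animals ran from 1411 to 2358 CPM (median 1466) and Het animals from 1179 to 1469 CPM (median 1362). The log2 fold change was -0.22 (SE 0.11; edgeR adjusted p = 0.623), and the highest WT value, that of female 1, stood apart from the others. In OPC-like nuclei the estimate was -0.49 (SE 0.27; edgeR adjusted p = 0.998), with means of 97.7 CPM in WT and 66.2 CPM in Het. By edgeR, Lamp5-like nuclei alone had an estimate above 0, at 0.15 (SE 0.16; edgeR adjusted p = 0.944). In Vip-like nuclei the estimate was close to 0, at -0.0029 (SE 0.18).

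**Figure D5:**
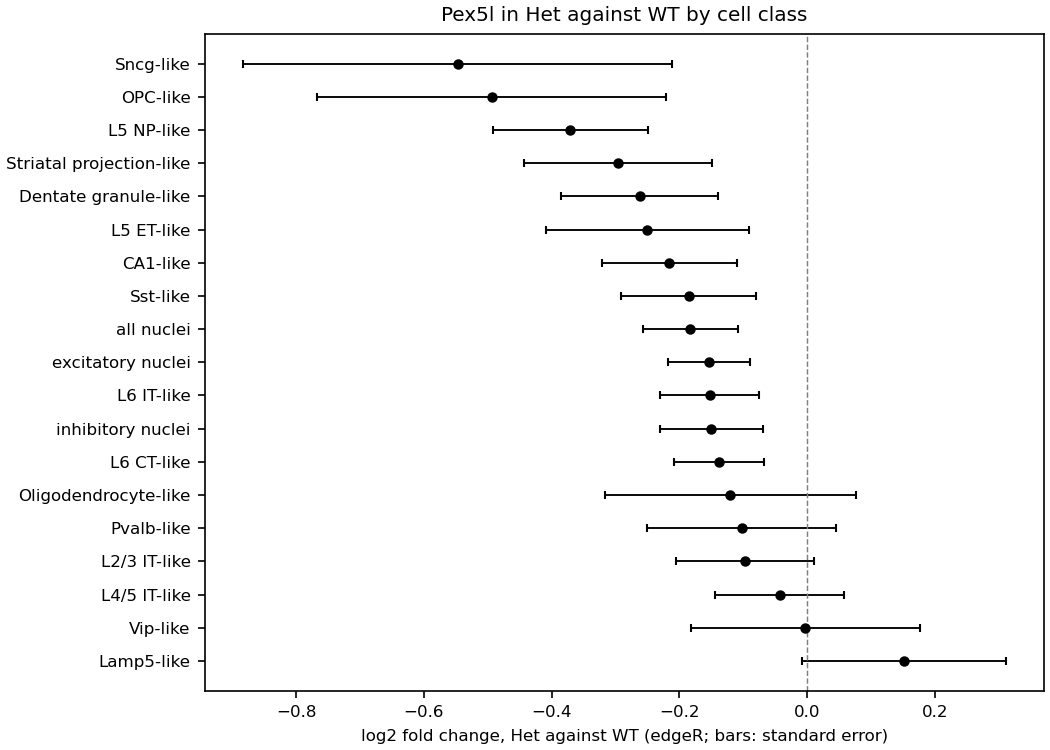
Log2 fold change of Pex5l in Het against WT (horizontal axis, edgeR) with its standard error, for all, excitatory and inhibitory nuclei and for 16 named classes. The points lie below 0 in 15 of the 16 classes, and none passed the adjusted threshold.

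In the classes with the highest means over both genotypes, the genotypes can be set side by side, although these genes fell under the filter on low counts there. With no filter, edgeR called none of them (adjusted p = 0.6145 for Hcn2 in Pvalb-like nuclei, and 0.635 for both Hcn3 and Hcn4 in Vip-like nuclei). Hcn2 in Pvalb-like nuclei averaged 15.9 ± 4.28 CPM in WT and 22.2 ± 5.96 CPM in Het animals (SD, n = 6 each), and the ranges overlapped. The largest Pvalb-like cluster was not the same in WT and Het, with 251 and 220 WT nuclei and 264 and 273 Het nuclei in the clusters of 515 and 493 nuclei. Hcn3 in Vip-like nuclei had means of 21.8 ± 9.22 CPM in WT animals and 11.99 ± 7.93 CPM in Het animals. Hcn4 in the same class came to 11.9 ± 11 CPM in WT animals, from 10 UMIs with 2 animals at 0, and to 1.04 ± 1.70 CPM in Het animals, from 1.3 UMIs with 4 animals at 0.

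Sex did not alter the genotype difference of any member past the test. The interaction of sex and genotype was called for 0 of 28 tests by edgeR, beside 0.0115% of all tests called. It gave an unadjusted p under 0.05 in 4 of the 28, and in 5.14% of all tests; DESeq2 was not run for it. The smallest p was that of Pex5l in L2/3 IT-like nuclei, with an interaction of 0.56 on the log2 scale (SE 0.17; edgeR adjusted p = 0.255).

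The genes around the channel were measured from 2 lists. The list of 14 HCN partners holds Pex5, the peroxisomal relative of Pex5l, and other genes reported to bind or modify the channels, such as Kctd3 and Nedd4l. Over 135 tests of its members in all fits, edgeR and DESeq2 called 0 in either direction, beside 0.143% and 0.266% of all tests called. They gave an unadjusted p under 0.05 in 5 and 3 of the 135, and in 6.73% and 4.79% of all tests. In all nuclei 12 of the 14 were tested and their median log2 fold change was 0.05. Pex5 itself was at 0.17 (SE 0.09; edgeR adjusted p = 0.896).

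The list of 8 adenylyl cyclases holds the enzymes that make the cyclic AMP to which the channels respond. Over 92 tests edgeR called 0, with 12 under an unadjusted p of 0.05, against 6.73% of all tests, and DESeq2 called 1 higher and 0 lower, beside 0.266% of all tests called in either direction. The call was Adcy5, the main cyclase of striatal neurons, in inhibitory nuclei. Its log2 fold change was 0.56 (SE 0.12; edgeR adjusted p = 0.0915, DESeq2 adjusted p = 0.0117). By edgeR it was also called with no filter on low counts (adjusted p = 4.27e-08) and without WT female 2 (adjusted p = 0.00231), and it was not called under the other alternatives run, with a log2 fold change of 0.55 and an adjusted p of 0.447 with neither upper limits nor a complexity limit, and 0.61 and 0.337 with the stricter class margin. Striatal projection-like nuclei made up 20.2% ± 4.02 of the inhibitory nuclei in Het (SD, n = 6), from 13.5% to 24.3%, and 13.1% ± 3.84 in WT, from 9.89% to 19.3%. Within striatal projection-like nuclei Adcy5 averaged 546 ± 70.1 CPM in WT and 619 ± 93.9 CPM in Het animals (SD, n = 6 each), a log2 fold change of 0.16 (SE 0.11; edgeR adjusted p = 0.915). The largest cluster of this class was not the same in the genotypes, with 140 WT and 385 Het nuclei in one and 181 WT and 344 Het nuclei in another. The part of the striatal share in the call of Adcy5 was not tested.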

How the data were processed

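Nuclei of 12 mouse cortices were profiled with the Scale Biosciences kit, and the authors used ScaleRna to align reads to mm10 and to count UMIs per gene. The deposited values are expected counts, in which a UMI matching more than 1 gene is split between these genes. They were not normalized. Of the entries, 92.6% were exactly whole numbers, with no tolerance. The submitters' processing notes name Seurat 4.3.0 and DESeq2 1.38.3.

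After the study, nuclei were kept if they had 800 to 6000 UMIs and 300 to 3000 genes, no more than 1% of UMIs from mitochondria, and a log-scale complexity (log genes over log UMIs) of at least 0.9, which were 34860 of 78743 barcodes (44.3%). Of all barcodes, 43095 were under the complexity limit, 33586 exceeded 6000 UMIs and 15481 exceeded 3000 genes, and these can be the same barcodes, so the deeper nuclei are not in the main values. Scrublet, in place of the DoubletFinder of the study, was run per animal and the top 5% by its score, 1744 nuclei, were taken out (scanpy 1.11.5). The nuclei left were fewer than the study reported at this age. Clustering (leidenalg 0.10.2, 3000 variable genes, 50 principal components, 20 neighbours, members and listed genes left out) ran in 2 rounds and gave 87 clusters. A name needed a marker score of at least 0.7 and a margin of 0.3 over the next class. It also needed at least 3 marker or check genes raised 2-fold. Non-neuronal clusters above 25% of the neuronal level of Slc17a7, Sv2b and Rbfox3, or of Gad1 and Gad2, took no name. A cluster with Meis2 among its leading genes could only be named striatal projection-like. In all, 42 clusters with 9298 nuclei stayed unnamed. These criteria were adjusted after the clusters were seen, and before the members' values. No animal gave more than 27.2% of a named cluster, but over all clusters, unnamed ones included, the largest share of 1 animal was 42.9%. WT and Het shared the largest cluster in 17 of 19 classes, the exceptions being Pvalb-like and striatal projection-like nuclei. A class with 32 vascular and meningeal nuclei was too small for use.

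Expected counts were summed per animal and class and rounded, animals with at least 10 nuclei entered a class, and classes with at least 3 animals per genotype were fitted with edgeR 4.0.16 (TMM, filterByExpr, robust quasi-likelihood, genotype only) in R 4.3.3. DESeq2 1.42.0 was an alternative. Standard errors are the log2 fold change divided by the root of the test's F. Levels in pairs of classes were compared on log2(CPM + 1) by exact two-sided sign flips within animals, and the smallest p with 12 animals is 0.000488. A level of 0 UMIs is given with the limit of 3 counts. Likeness was taken over genes with at least 20 CPM in 1 class. The tests were checked on simulated data. The animals are separate mice, and the p-values measure the spread between them. The members and lists were chosen with earlier results of these data known. Genes are named as members, as list genes that were called, or as the 3 genes most like each member, and clusters and their genes were chosen after their values were seen.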

Additional observations from a re-analysis of the deposited data

Results flagged for a closer look

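In 5 of 57 groups of 4 to 10 animals, 1 animal lay far from the others by Dixon's 95% criterion, and chance alone flags about 1 in 20 groups. Hcn3 in excitatory nuclei was at 3.76 CPM in Het female 1, and the next Het animal at 5.41 CPM. Pex5l in CA1-like nuclei was at 2358 CPM in WT female 1, and the next WT animal at 1488 CPM. Pex5l in OPC-like nuclei was at 40.3 CPM in WT male 3, against 94.2 CPM in the next WT animal. In oligodendrocyte-like nuclei Pex5l was at 861 CPM in Het female 3, against 564 CPM in the next Het animal. In astrocyte-like nuclei it was at 86.0 CPM in Het male 1 and at 0 in the other 4 Het animals with enough nuclei.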

How the results depend on the processing

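No member was called in Het against WT under any of 19 alternatives, among them DESeq2, no filter on low counts, sex as a covariate and each animal left out. In all nuclei the sign of Hcn2, Hcn3 and Pex5l held under all 18 alternatives, though with neither upper limits nor a complexity limit on nuclei, lifted together, Hcn2 moved to -0.08 and Hcn3 to -0.11, whereas the log2 fold change of Hcn4 turned to -0.0623 with these limits lifted, to -0.05 without WT male 3 and to -0.0285 without Het female 2, and the cause was not tested. Leaving out each animal in turn moved the log2 fold changes over -0.18 to -0.06 for Hcn2, -0.32 to -0.15 for Hcn3, -0.05 to 0.24 for Hcn4 and -0.23 to -0.13 for Pex5l. DESeq2 gave no adjusted p for Hcn2, Hcn3 and Hcn4 in all nuclei. The replicate block of sex and number gave -0.13, -0.23, 0.08 and -0.17 for Hcn2, Hcn3, Hcn4 and Pex5l, with 0 members called. The numbers did not pair the animals, since the 6 same-numbered pairs correlated at -0.32 to 0.04, and samples share a number only. For inhibitory against excitatory nuclei, no direction turned. WT animals alone gave 0.42 for Hcn2 (adjusted p = 0.125), 0.84 for Hcn3 (0.0625), 0.53 for Hcn4 (0.219) and -1.46 for Pex5l (0.0625) by the exact permutation test, in which 6 animals cannot give a p below 0.03125. Hcn4 also no longer passed in Het animals alone (0.49, adjusted p = 0.0625) or with the stricter class margin (0.25, adjusted p = 0.373), and ran from 0.42 to 0.66 with each animal left out, past the threshold except without WT male 1 (0.44) or WT male 2 (0.42). With each animal left out the differences ran from 0.37 to 0.49 for Hcn2, 0.80 to 0.87 for Hcn3 and -1.50 to -1.43 for Pex5l. Of neighbouring classes 6 pairs passed, and 7 of 56 in the order added after the data were seen. The class means of Hcn4 other than L2/3 IT-like and L4/5 IT-like rest on 11.3 UMIs or fewer.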

Other observations

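Among the adenylyl cyclases, Adcy1, a calcium-stimulated cyclase, in CA1-like nuclei was singled out after its values were seen. It was at 95.8 ± 9.80 CPM in WT (SD, n = 6), from 82.7 to 109 CPM, and at 49.7 ± 21.2 CPM in Het, from 9.65 to 70.9 CPM. Some sums were small, with 20 CA1-like nuclei and 66152 counts in WT female 1, and 30 nuclei and 103662 counts in Het male 1. In such sums single UMIs weigh heavily. The share of all genes with ranges set apart in this way is not given here. The log2 fold change was -0.77 (SE 0.22) and did not pass the adjustment over all genes tested (adjusted p = 0.147 by edgeR and 0.342 by DESeq2), in a set of fits where 0.159% of tests were called. Other estimates of Adcy1 by edgeR were 0.08 in all, 0.15 in excitatory, -0.02 in inhibitory and 0.28 in Lamp5-like nuclei, none called. Adcy8, another calcium-stimulated cyclase, was at 162 ± 11.8 CPM in WT and 147 ± 9.98 CPM in Het over all nuclei (SD, n = 6 each), a log2 fold change of -0.17 (SE 0.07; edgeR adjusted p = 0.785). A small unnamed inhibitory cluster of 98 nuclei, with Ndnf, Meis2 and Klhl1 among its leading genes, held Hcn4 at 38.9 CPM.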
